A study of Mus musculus with 4 samples.

Results

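Mitochondrial ribosomal proteins are encoded in the nucleus, and 76 of the 23746 gene rows in the expression table of each tumor carried a symbol of this family, Mrpl or Mrps followed by a number and at most 1 letter from a to c. Of these, 47 had an Mrpl symbol, the large subunit, and 29 an Mrps symbol, the small subunit. The symbols alone chose them, with no measured value. PolyA RNA of 4 primary mammary tumors of female mice was measured, 2 labelled WapCre;Rank;Brca1;p53 (triple-mutant, tumors 26043 and 26044) and 2 labelled WapCre;Brca1;p53 (double-mutant, tumors 26048 and 26050). All 4 carried the WapCreC transgene, which acts in mammary epithelial cells from the whey acidic protein promoter, and floxed alleles of Brca1 and p53, and the triple-mutant tumors also carried floxed Rank, the receptor of the cytokine RANKL. The age of these mice and the grade of each sequenced tumor are not given in the sources used here, but in the wider cohort triple-mutant tumors were graded intermediate and double-mutant ones intermediate or high. Females of both genotypes are described as littermates, and since it is not given which of these tumors would form a pair, no pairing was used. The p-values below measure the spread between these 4 tumors only.

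The mitochondrial ribosome makes the few proteins encoded by mitochondrial DNA, core subunits of the respiratory chain and of ATP synthase. Its RNA comes from the mitochondrial genome, while its proteins are translated in the cytosol and imported, many of them related to bacterial ribosomal proteins and others found in mitochondria only. Assembly takes roughly equal numbers of each protein, but the mRNA levels of the genes need not be equal. The factors NRF1 (nuclear respiratory factor 1), GABP (an ETS-family factor) and YY1 are known to bind promoters of nuclear genes for mitochondrial proteins, and MYC binds the E-box.

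Promoters were read from RefSeq windows on GRCm38.p6 that run from 250 bases before to 50 bases after each start, and 67 of the 76 genes had one. No window was held for Mrpl13, Mrpl15, Mrpl19, Mrpl38, Mrpl4, Mrpl54, Mrps28, Mrps34 and Mrps35. Searched on both strands, the NRF1 letters GCGCATGCG stood in 9.59% of the 73 windows of the family (some genes have several) and in 1.75% of all 32851 windows. For GABP/ETS, CCGGAAGT, the shares were 16.4% and 3.89%, and for YY1, AAGATGGCG, 11.0% and 1.4%. The E-box CACGTG was held by 9.59% of the family's windows and 7.15% of all. In the 11584 windows of the genes tested for expression, the shares were 3.51% for NRF1, 7.59% for GABP/ETS, 2.83% for YY1 and 9.98% for the E-box. At least 1 of the 4 motifs was found for 28 of the 67 genes and at least 2 kinds for 4 of them, and 39 held none. By window, at least 1 stood in 41.1% of the family's, 21.4% of those of tested genes and 13.1% of all. These are letter matches in a window, not measured binding. The median GC content was 58.3% in the family's windows, 60.7% in those of tested genes and 52.7% in all.

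The windows of 4 genes are printed 5′ to 3′ on the strand of the gene, with motif matches in capitals. Mrpl52 and Mrps6 had the largest difference between genotypes in either direction, Mrpl32 held the most NRF1 matches, and Mrps11 faces a second gene of the family. They were chosen after their values were seen.
Mrpl52: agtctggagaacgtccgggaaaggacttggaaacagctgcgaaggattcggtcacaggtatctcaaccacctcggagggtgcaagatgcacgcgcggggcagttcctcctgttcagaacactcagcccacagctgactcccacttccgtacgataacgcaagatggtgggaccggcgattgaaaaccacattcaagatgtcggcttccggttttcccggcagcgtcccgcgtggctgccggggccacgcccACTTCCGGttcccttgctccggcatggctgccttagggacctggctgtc
Mrps6: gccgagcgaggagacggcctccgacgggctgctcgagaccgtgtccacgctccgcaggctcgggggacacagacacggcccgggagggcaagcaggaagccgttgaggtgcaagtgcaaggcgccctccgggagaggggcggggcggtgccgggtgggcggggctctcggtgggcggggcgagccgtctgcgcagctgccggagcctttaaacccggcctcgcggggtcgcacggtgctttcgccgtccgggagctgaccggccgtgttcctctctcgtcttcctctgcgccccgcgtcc
Mrpl32: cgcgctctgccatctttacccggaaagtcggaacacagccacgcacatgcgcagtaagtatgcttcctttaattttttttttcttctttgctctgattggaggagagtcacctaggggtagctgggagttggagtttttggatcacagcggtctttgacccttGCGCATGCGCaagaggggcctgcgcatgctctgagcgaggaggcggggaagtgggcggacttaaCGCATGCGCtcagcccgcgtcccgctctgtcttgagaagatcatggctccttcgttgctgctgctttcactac
Mrps11: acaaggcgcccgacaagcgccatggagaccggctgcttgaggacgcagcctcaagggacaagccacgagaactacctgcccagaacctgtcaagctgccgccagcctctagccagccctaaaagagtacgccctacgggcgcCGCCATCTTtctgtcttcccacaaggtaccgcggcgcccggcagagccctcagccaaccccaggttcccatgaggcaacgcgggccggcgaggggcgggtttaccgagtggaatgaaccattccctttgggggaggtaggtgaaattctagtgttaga
The Mrpl52 window lies at chr14:54426659-54426958 on the plus strand, and its GABP/ETS match, read on the opposite strand, begins 1 base after the start. The Mrps6 window, chr16:92058086-92058385 on the plus strand, held none of the 4 motifs. In the Mrpl32 window, chr13:14612988-14613287 on the minus strand, the first capitals are 2 overlapping NRF1 matches on opposite strands and the second are 1 further match. The Mrps11 window, chr7:78782881-78783180 on the plus strand, held a YY1 match on the opposite strand. Mrps11 and Mrpl46 are divergent genes whose starts lie 412 bases apart in the GENCODE M21 annotation, where the genes overlap. The RefSeq starts behind the windows lie closer, and the Mrpl46 window, chr7:78783040-78783339 on the minus strand, overlaps that of Mrps11.

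All 76 genes were measured in every tumor, with status OK, and all passed the filter of 1 FPKM in at least 2 tumors that left 12752 genes for testing. FPKM is the number of sequenced fragments per kilobase of transcript, scaled to the total of each tumor, so levels of different genes are compared per length below. Averaged over the 4 tumors, FPKM ran from 8.43 for Mrpl19 to 349 for Mrpl52 with a median of 54.4, above 85.7% of the tested genes, whose median was 12.1 FPKM. The quartiles of the family were 29.5 and 89.1 FPKM. The order of the levels was alike in the 4 tumors, and Mrpl52, Mrpl12, Mrps21 and Mrpl33 were among the highest 5 in each of the 4 tumors. Mrpl12 belongs to the stalk that receives translation factors, Mrpl33 and Mrps21 have bacterial counterparts, and Mrpl52 does not.

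**Figure D1:**
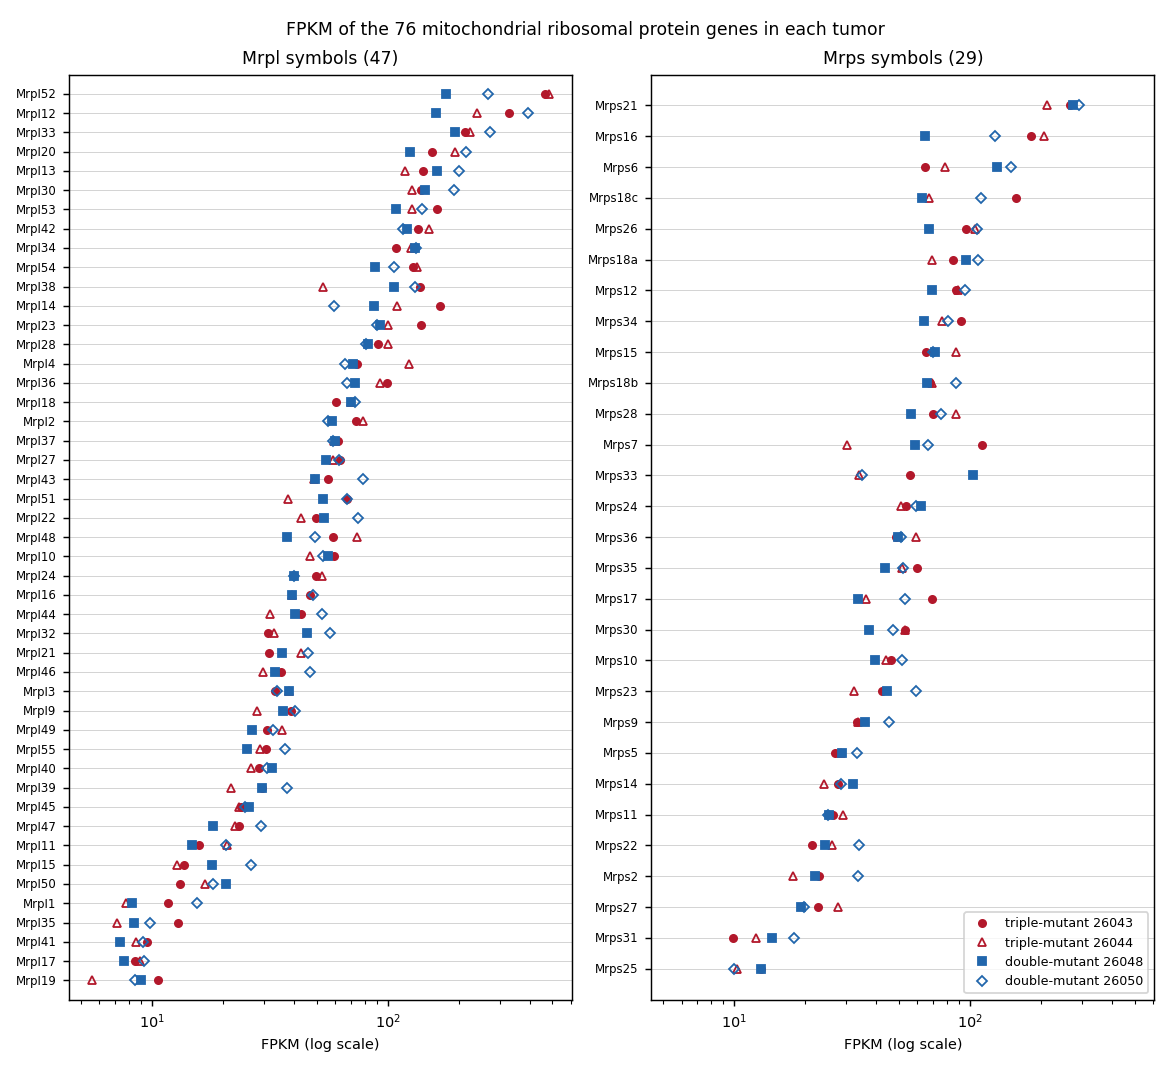
FPKM (log scale) of each gene in each tumor, Mrpl symbols on the left and Mrps symbols on the right, ordered by mean level. Filled and open red marks are the triple-mutant tumors 26043 and 26044, blue marks the double-mutant tumors 26048 and 26050. The spread over genes, from 8.43 to 349 FPKM in the mean, is far wider than that over tumors of most genes.

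Mrpl12 gave 328 and 239 FPKM in tumors 26043 and 26044, which are triple-mutant, against 160 and 395 FPKM in the double-mutant tumors 26048 and 26050. The double-mutant tumors held both its lowest and its highest value. Mrps21 gave 265 and 212 against 274 and 292 FPKM. Mrpl33 gave 214 and 223 against 193 and 272 FPKM. Mrpl20 gave 155 and 193 against 124 and 214 FPKM. Of these, only Mrps21 had both double-mutant tumors above both triple-mutant tumors, and it differed by −0.25 on the log2 scale (SE 0.28), less than its error. At the low end stood Mrpl19, Mrpl17, Mrpl41, Mrpl35 and Mrpl1, all of the large subunit. Mrpl17 stayed between 7.64 and 9.29 FPKM in the 4 tumors and Mrpl41 between 7.34 and 9.60. Mrpl19 was at 10.7 and 5.58 against 8.99 and 8.50 FPKM, Mrpl35 at 13.0 and 7.12 against 8.44 and 9.86, and Mrpl1 at 11.7 and 7.78 against 8.21 and 15.6. The genotypes overlapped for all 5.

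Level and transcript length went in opposite directions over the 76 genes. Spearman's rho between mean FPKM and the length of the longest coding transcript in GENCODE M21 was −0.61 (n = 76 genes of the same 4 libraries, a description). The median length was 730 bases for the 10 genes with the highest FPKM and 3638 bases for the 10 with the lowest. Cufflinks' own confidence interval moved with length too: the FPKM lay outside it for 46 to 50 of the 76 genes in each tumor, and for 41 genes in all 4. FPKM divided by the interval's midpoint had a median of 1.13 and ran from 0.727 to 3.16, the highest for Mrpl52. This ratio was over 1.1 for 19 of the 24 genes with transcripts under 1000 bases and for 5 of the 23 over 2000 bases, and its rho with length was −0.57. For Mrpl52 in tumor 26043, FPKM was 466 while the interval ran from 138 to 158, so the level of the short transcripts depends on which of the columns is read. What produced the gap was not tested. Differences between genotypes depended on the column to an extent that varied by gene. The Mrpl52 log2 fold change was 1.12 by FPKM and 1.03 by the midpoint, while Mrpl4 went from 0.48 to 0.31 and Mrpl33 from −0.071 to 0.088. By the midpoint, 12 genes of the family were higher in both double-mutant tumors, against 18 by FPKM. Over all tested genes this share fell too, from 22.9% by FPKM to 19.5% by the midpoint.

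**Figure D2:**
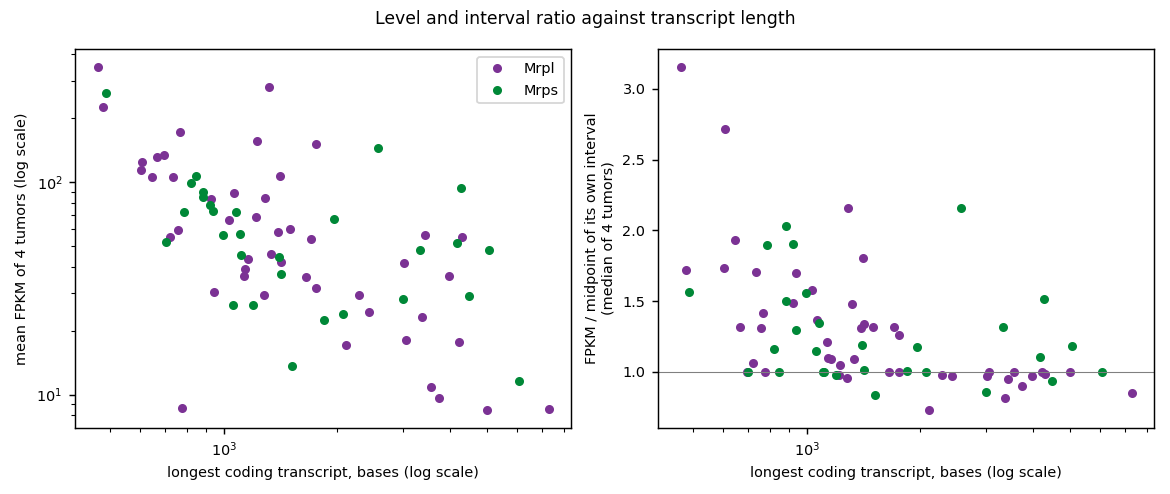
Mean FPKM over 4 tumors (left) and FPKM divided by the midpoint of its own Cufflinks interval (right, median of 4 tumors), each against the length of the longest coding transcript in bases (log scale), with Mrpl genes in purple and Mrps genes in green. Longer transcripts had lower levels (rho −0.61), and ratios above 1.5 stand mostly among the short transcripts.

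Between genotypes the family's values were spread around no difference. In a limma fit of log2(FPKM + 1) over all 12752 genes, triple-mutant minus double-mutant, 0 of the 76 genes had a Benjamini-Hochberg adjusted p under 0.05 in either direction, and the share over all tested genes was 0.0%. Without limma's variance trend 5 genes passed, and after quantile normalization 6, of which 0 were of the family. The smallest adjusted p of the family was 0.467, for Mrps6, and that of all tested genes 0.0644. Unadjusted p was under 0.05 for 2 of the 76 genes, Mrps6 and Mrpl52, or 2.63%, against 9.82% of all genes. By rank, with 2 tumors against 2, an exact permutation test cannot go below p = 0.333. Both triple-mutant tumors lay above both double-mutant tumors for 15 of the 76 genes (19.7%), against 21.3% of all tested genes, and both double-mutant tumors lay above for 18 (23.7%), against 22.9%. In all, the genotypes did not overlap for 33 genes, 43.4% beside a background of 44.3%, so the counts sat near the background. The median log2 fold change was −0.012 over the family and −0.022 over all tested genes, and 39 of the 76 were negative (51.6% of all genes were). Without tumor 26048 the family's median was −0.15, and without tumor 26050 it was 0.096. Single differences ran from −0.96 to 1.12 with standard errors from 0.25 to 0.67, and 68 of the 76 were under 0.5 in size. The median size of the log2 fold change was 0.23 in the family and 0.38 over all tested genes, and 2 of the 76 reached 1, against 14.5% of all genes. It was also 0.23 for 77 cytosolic ribosomal proteins, of which 3 reached 1. For 78 subunits of oxidative phosphorylation and 19 mitochondrial tRNA synthetases and related enzymes it was 0.26. A small size was thus not particular to the family.

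**Figure D3:**
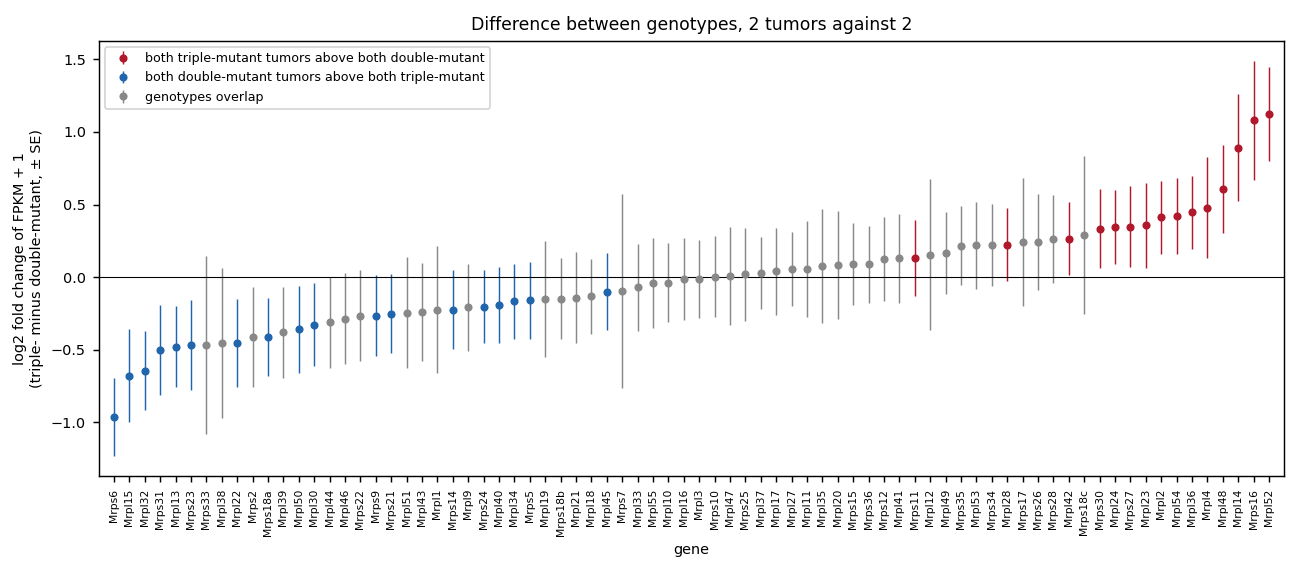
Log2 fold change of FPKM + 1 (triple-mutant minus double-mutant, 2 tumors each) with its standard error from limma, for the 76 genes in order. Red marks the 15 genes whose triple-mutant tumors were both above, blue the 18 whose double-mutant tumors were both above, and grey the 43 that overlapped; the ends are Mrps6 at −0.96 and Mrpl52 at 1.12.

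The subunits were then counted apart. Of the 47 Mrpl symbols, 11 were higher in both triple-mutant tumors and 9 in both double-mutant tumors (23.4% and 19.1%, against 21.3% and 22.9% of all tested genes), with a median log2 fold change of −0.013. Of the 29 Mrps genes the counts were 4 and 9 (13.8% and 31.0%), with a median of 0.0035. By position in the ribosome, Mrps18a and Mrps30 are proteins of the large subunit and Mrps36 is a subunit of the 2-oxoglutarate dehydrogenase complex, which leaves 49 large subunit genes (12 and 10, median −0.013) and 26 small subunit genes (3 and 8, median −0.046). Genes with a bacterial counterpart had medians of −0.012 in the large (30 genes) and −0.046 in the small subunit (16 genes). Mitochondria-specific genes had medians of −0.099 (19 genes) and −0.064 (10 genes). Leaving out tumor 26048 moved the large subunit median to −0.16 and leaving out tumor 26050 to 0.14.

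Among the large subunit genes higher in the triple-mutant tumors, Mrpl52, a mitochondria-specific protein, stood first. Its FPKM of 466 and 485 in tumors 26043 and 26044 stood against 177 and 268 in tumors 26048 and 26050. The lower triple-mutant value was above the higher double-mutant value, and the means were 476 ± 13.4 and 222 ± 64.0 FPKM (SD, n = 2 each). On the log2 scale the difference was 1.12 (SE 0.32, limma adjusted p = 0.470). The 20 tested genes on either side of it on chromosome 14 had a median log2 fold change of 0.63 in the same direction, and with that median subtracted Mrpl52 was at 0.49.

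Mrpl14, which has a bacterial counterpart at the interface between subunits, gave 166 and 109 FPKM against 87.6 and 59.4, a log2 fold change of 0.89 (SE 0.37, limma adjusted p = 0.531). The tumors of each genotype also stood apart from each other, and the groups did not overlap, and without tumor 26043 the difference was 0.59. Mrpl48 gave 58.9 and 74.0 against 37.4 and 49.4 FPKM, 0.61 on the log2 scale (SE 0.30). Mrpl4, whose bacterial counterpart lines the exit tunnel, gave 74.1 and 124 against 71.3 and 65.7 FPKM, 0.48 (SE 0.35). Its tumor 26043 lay just above the double-mutant tumors, and without tumor 26044 the difference was 0.11. Mrpl36 gave 99.0 and 93.0 against 72.7 and 67.6 FPKM, 0.45 (SE 0.25). Mrpl54 gave 128 and 133 against 88.3 and 107 FPKM, 0.42 (SE 0.26). The genes around Mrpl54 on chromosome 10 had a median log2 fold change of 0.59, and with it subtracted Mrpl54 was at −0.17. Mrpl2, counterpart of a core protein of the peptidyl transferase region, gave 73.3 and 78.6 against 58.0 and 55.6 FPKM, 0.41 (SE 0.25), and 0.0052 with its neighbours' median subtracted. The other large subunit genes of this direction, Mrpl23, Mrpl24, Mrpl42 and Mrpl28, differed by 0.36, 0.34, 0.26 and 0.22.

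Among the Mrps symbols, Mrps16, of the small subunit, led the genes higher in the triple-mutant tumors. Mutations of its human counterpart are known from patients with combined respiratory chain deficiency. It gave 181 and 206 FPKM against 64.6 and 128, with means of 194 ± 17.7 and 96.1 ± 44.5 FPKM (SD, n = 2 each). The log2 fold change was 1.08 (SE 0.41, limma adjusted p = 0.511). The double-mutant tumors differed between themselves by nearly as much, and without tumor 26048 the difference was 0.60. Mrps27, Mrps30 and Mrps11 followed at 0.35, 0.33 and 0.13, of which Mrps30 belongs to the large subunit by structure. Mrps11, whose window is printed above, gave 26.3 and 29.1 against 25.3 and 25.1 FPKM, and its divergent partner Mrpl46 gave 35.3 and 29.6 against 33.4 and 47.04, so that the members of this pair had opposite signs (0.13 and −0.29), both smaller than their errors of 0.26 and 0.31.

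In the other direction Mrps6, the counterpart of a bacterial small subunit protein, was the clearest. It gave 64.7 and 78.9 FPKM in tumors 26043 and 26044 against 131 and 150 FPKM in tumors 26048 and 26050. The groups were well apart, with means of 71.8 ± 10.04 and 141 ± 13.6 FPKM (SD, n = 2 each). The log2 fold change was −0.96 (SE 0.27, limma adjusted p = 0.467). Leaving out each tumor gave −0.82 to −1.10, and subtracting the neighbours' median gave −0.71. Mrps6 overlaps Slc5a3, a myo-inositol transporter gene on the same strand whose start lies 52 bases away. Slc5a3 was at 2.37 and 2.38 against 4.79 and 4.19 FPKM, and how reads in the shared part were assigned is not given in the sources used here.

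Mrps31, a mitochondria-specific protein, gave 9.86 and 12.4 against 14.5 and 18.0 FPKM, −0.50 on the log2 scale (SE 0.31). Mrps23 gave 42.3 and 32.1 against 44.7 and 59.2 FPKM, −0.47 (SE 0.31). The groups of Mrps23 were separated by the narrow gap between tumor 26043 and tumor 26048, and its difference was −0.27 without tumor 26050 and −0.28 without tumor 26044. Mrps18a, given with its paralogs below, also had this direction, and the other Mrps symbols that did were Mrps9, Mrps21, Mrps14, Mrps24 and Mrps5, from −0.27 to −0.16.

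Of the large subunit genes higher in the double-mutant tumors, Mrpl15 gave 13.7 and 12.8 against 18.1 and 26.3 FPKM, −0.68 on the log2 scale (SE 0.32, limma adjusted p = 0.560). Mrpl32, known as a substrate of the mitochondrial m-AAA protease that matures before it joins the ribosome, gave 31.3 and 33.0 against 45.4 and 56.8 FPKM, −0.64 (SE 0.27, limma adjusted p = 0.535). The groups of both genes were clear of each other, and subtracting their neighbours' medians brought them to −0.38 and −0.40. Without tumor 26050 Mrpl15 was at −0.42. Psma2, a proteasome subunit gene that starts 75 bases from Mrpl32 on the opposite strand, was at −0.33 (SE 0.27). Mrpl13 gave 141 and 119 against 162 and 202 FPKM, −0.48 (SE 0.28), and −0.16 with its neighbours' median subtracted. Mrpl22 gave 49.6 and 42.8 against 53.9 and 74.9 FPKM, −0.45 (SE 0.30), and −0.22 without tumor 26050. Mrpl50, Mrpl30, Mrpl40, Mrpl34 and Mrpl45 lay between −0.36 and −0.10.

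The Mrps18 paralogs occupy different places, Mrps18a in the large and Mrps18b and Mrps18c in the small subunit. Mrps18a gave 84.5 and 69.0 against 96.4 and 108 FPKM, a log2 fold change of −0.41 (SE 0.27), which was −0.27 without tumor 26044 and −0.69 with the neighbours' median subtracted. Mrps18b gave 67.6 and 69.2 against 65.9 and 87.4 FPKM, −0.15 (SE 0.28), which was 0.052 without tumor 26050 and −0.40 with the neighbours' median subtracted. Mrps18c gave 156 and 66.9 against 62.9 and 111 FPKM, 0.29 (SE 0.54). The genotypes overlapped for Mrps18b and Mrps18c, and differences between the paralogs were not tested.

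Between single tumors the family was tight for most genes. The highest of the 4 FPKM values divided by the lowest had a median of 1.49, against 1.804 for tested genes with at least 5 FPKM in every tumor, and it was under 1.5 for 38 genes and over 2 for 12. The double-mutant tumors differed by a median of 0.30 on the log2 scale in the family. In cytosolic ribosomal proteins this was 0.21 and in subunits of oxidative phosphorylation 0.19. Between the triple-mutant tumors the medians were 0.25, 0.54 and 0.27 in the same order. Mrpl37 had the narrowest range of all 76, from 58.8 to 61.8 FPKM. The widest belonged to Mrps7, the counterpart of a bacterial protein that binds the small subunit RNA, with 112 and 30.0 FPKM in tumors 26043 and 26044 against 58.4 and 66.6. Mrps33 gave 55.8 and 33.8 against 104 and 35.0 FPKM. Mrpl38 gave 137 and 53.3 against 106 and 130 FPKM. In each of these 3 genes, chosen after their values were seen, 1 tumor stood far from the other of its own genotype.

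In the tumors where Mrps7, Mrpl38 and Mrps33 stood apart, nearby genes did so too. Measured as the deviation from a gene's own mean over the 4 tumors, on the log2 scale, Mrps7 was at −0.98 in tumor 26044 and its 20 tested neighbours on either side on chromosome 11 had a median of −0.75. For Mrpl38, on the same chromosome, these values were −0.90 and −0.97. For Mrps33, on chromosome 6, they were 1.001 and 0.75 in tumor 26048. For Mrps18c, on chromosome 5, they were 0.75 and 0.54 in tumor 26043. These were the 4 genes of the family whose neighbours deviated by over 0.5 in any tumor, and all 4 had the sign of their neighbours there. No such share was computed over other genes. Mrps16, Mrpl52 and Mrpl14 also ranged more widely than Mrpl38, and their neighbours deviated less. Mrps16 was at −1.03 with neighbours at −0.48, and Mrpl52 at −0.86 with −0.44, both in tumor 26048. Mrpl14 was at 0.75 with neighbours at 0.11 in tumor 26043. Over all 76 genes, Pearson's r between a gene's deviation and that of its neighbours was 0.70, 0.64, 0.74 and 0.49 in tumors 26043, 26044, 26048 and 26050, while over all 12752 tested genes it ran from 0.26 to 0.37. These are descriptions over genes of 1 library, and members that lie close together share neighbours. The family also stands higher in level than most tested genes, and r was not computed for other genes of like level. The gap is therefore not shown to be particular to the family. Copy number was not measured, and its part in these values was not tested.

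**Figure D4:**
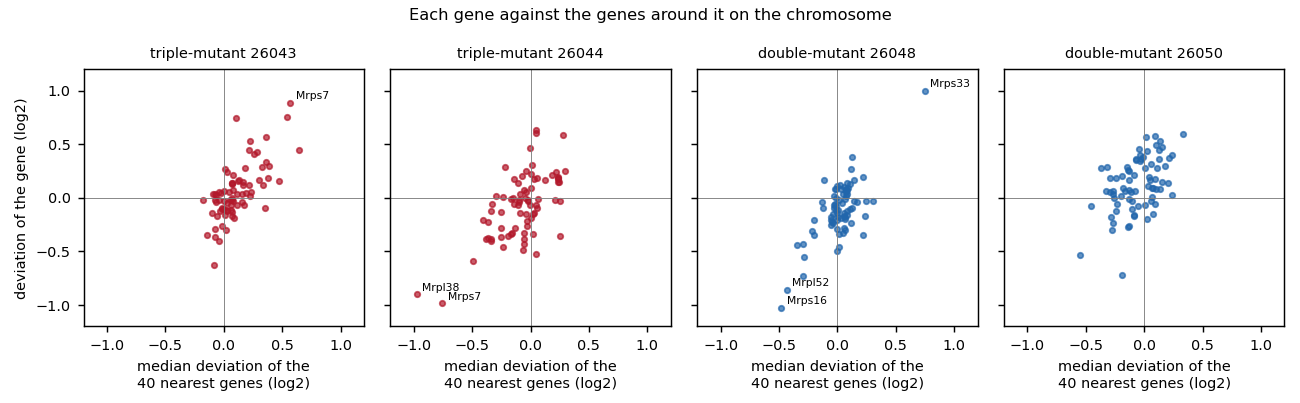
Deviation of each of the 76 genes from its mean over the 4 tumors (log2, vertical) against the median deviation of the 20 tested genes on either side of it (log2, horizontal), 1 panel for each tumor. The points rise together (r from 0.49 to 0.74), and Mrps7 and Mrpl38 in tumor 26044 and Mrps33 in tumor 26048 lie farthest out.

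By tumor, the most genes of the family peaked in the double-mutant tumor 26050, and the most were lowest in the other double-mutant tumor, 26048. The family's median level was 55.9, 47.9, 49.5 and 54.3 FPKM in tumors 26043, 26044, 26048 and 26050. Of the 76 genes, 35 had their highest value in tumor 26050 (46.1%, against 24.8% of all tested genes), and 28 had their lowest in tumor 26048 (36.8%, against 17.6%). From tumor 26048 to 26050, 56 of the 76 were higher, and the family's median difference was 0.29 on the log2 scale, while the median of all tested genes was −0.05. The typical gap between the double-mutant tumors, 0.30 in the median size, was within the range of 0.23 to 0.34 for pairs of tumors of different genotype, and the triple-mutant tumors differed by 0.25. The family took 0.837%, 0.667%, 0.661% and 0.782% of the summed FPKM in tumors 26043, 26044, 26048 and 26050.

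**Figure D5:**
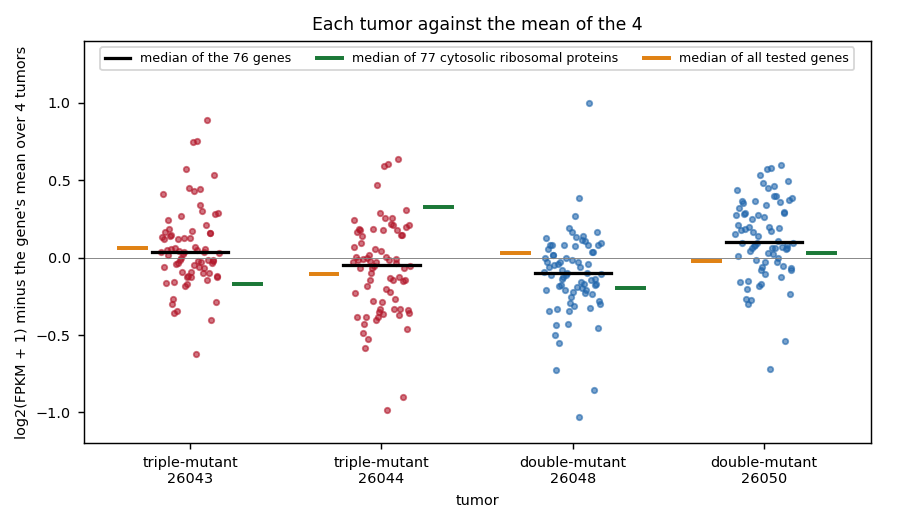
Log2(FPKM + 1) minus the gene's mean over the 4 tumors, for each of the 76 genes (points) with their median (black bar), beside the median of all tested genes (orange) and of 77 cytosolic ribosomal proteins (green). The family's medians were 0.033, −0.046, −0.10 and 0.10 from left to right, and the cytosolic proteins peaked at 0.32 in tumor 26044.

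The tumors differed in makeup, and these values stand beside the ones above. The 4 basal markers (Krt5, Krt14, Krt17, Trp63) summed to 1671, 359, 7.71 and 14.5 FPKM in tumors 26043, 26044, 26048 and 26050. The 5 luminal markers, with Krt8 and Epcam among them, summed to 2803, 408, 2214 and 1874 FPKM in the same order. Of these, Krt19 gave 1154 and 194 against 139 and 56.7 FPKM, while the other 4, Krt8, Krt18, Epcam and Cdh1, were lower in tumor 26043 than in tumor 26048. All 4 were lowest in tumor 26044, at 98.3, 80.3, 25.7 and 10.4 FPKM. Cdh1 overlapped between genotypes, with tumor 26050 at 69.65 FPKM below tumor 26043 at 100, and the others did not. The 6 fibroblast markers summed to 196 and 112 against 881 and 425 FPKM. Col1a1, Col1a2, Col3a1 and Lum were higher in both double-mutant tumors. Pdgfra went the other way, at 2.90 and 19.1 against 1.63 and 1.44 FPKM, and Dcn overlapped, at 19.3 and 5.47 against 13.7 and 13.0. The 5 adipocyte markers summed to 1976 FPKM in tumor 26048 and to 9.40 to 261 in the others, with Lep listed at 0 in all but tumor 26048. The 4 endothelial markers summed to between 21.7 and 76.9 FPKM, the 5 macrophage markers to between 156 and 563, the 7 markers of T and B cells to at most 3.59, and the 4 muscle markers to at most 28.9, in tumor 26050. Rank itself (Tnfrsf11a) was at 2.07 and 0.962 FPKM against 10.6 and 11.9, Brca1 at 3.26 and 3.28 against 3.84 and 5.69, and Trp53 at 15.7 and 87.8 against 150 and 103, in values that cover the whole gene and not the deleted part. In bulk RNA, fewer cells of a type and less RNA per cell cannot be told apart, and the part of makeup in the family's values was not tested.

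Other genes of mitochondrial translation were read from lists, and limma called 0 genes of each. The counts below stand beside 21.3% of all tested genes that were higher in both triple-mutant and 22.9% in both double-mutant tumors. Mitoribosomal proteins with other names, 8 with the membrane insertase Oxa1l, had a median log2 fold change of 0.14, with 1 gene higher in both tumors of each genotype. Oxa1l gave 35.4 and 36.2 against 16.0 and 25.3 FPKM, 0.80 on the log2 scale (SE 0.33). Dap3, a GTP-binding small subunit protein, gave 22.0 and 24.1 against 23.5 and 25.8 FPKM, −0.09 (SE 0.27). Of 25 assembly factors, 6 were higher in both triple-mutant and 5 in both double-mutant tumors (24.0% and 20%), with a median of −0.034. At the ends of this list, Fastkd2 gave 9.90 and 10.1 against 13.8 and 22.3 FPKM, and Ybey gave 1.27 and 6.76 against 1.15 and 1.33.

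Of 14 mitochondrial translation factors, 7 were higher in both double-mutant tumors (50%) and 3 in both triple-mutant tumors (21.4%), with a median log2 fold change of −0.21. Gfm2, which recycles the ribosome, gave 6.34 and 7.03 against 10.7 and 11.95 FPKM, −0.68 (SE 0.30), and Lrpprc, which stabilizes mitochondrial mRNA, gave 10.4 and 17.5 against 20.7 and 21.1, −0.59 (SE 0.36). Mtrf1l, a release factor, gave 4.96 and 2.94 against 1.38 and 2.46 FPKM, 0.76 (SE 0.40). For 19 mitochondrial tRNA synthetases and related enzymes the counts were 3 and 3 (15.8% each), and the median was 0.043. Qrsl1, of the glutamyl-tRNA amidotransferase, was at 128 FPKM in tumor 26044 and between 8.37 and 11.9 in the others.

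Of 10 tested genes for transcription and replication of mitochondrial DNA, 2 were higher in both triple-mutant and 1 in both double-mutant tumors (20% and 10%), with a median of 0.19. Polrmt, the mitochondrial RNA polymerase, gave 23.1 and 34.2 against 14.7 and 13.4 FPKM, 0.95 (SE 0.32, limma adjusted p = 0.488). Tfb2m, a factor that works with it, gave 11.4 and 14.4 against 20.1 and 22.9 FPKM, −0.70 (SE 0.30). Tfam, which packages mitochondrial DNA, was at 64.9 FPKM in tumor 26044 and between 11.5 and 15.9 in the others. The 13 mRNAs encoded by mitochondrial DNA were looked for and had no row under the names searched.

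Among 12 regulators, Nrf1 gave 14.1 and 12.8 against 13.6 and 19.5 FPKM, and Yy1 29.5 and 19.2 against 24.2 and 35.0, and their genotypes overlapped. Gabpa gave 11.7 and 11.1 against 14.4 and 15.5 FPKM, −0.37 (SE 0.28). Myc gave 82.1 and 128 against 96.1 and 101 FPKM, whereas Mycn gave 8.40 and 12.6 against 0.154 and 0.114, 3.32 on the log2 scale (SE 0.35, limma adjusted p = 0.143). The regulators had a median of −0.27, with 2 higher in both triple-mutant and 4 in both double-mutant tumors (16.7% and 33.3%). Of 14 proliferation genes, 0 were higher in both triple-mutant and 6 in both double-mutant tumors (42.9%), with a median of −0.34. Over all tested genes these shares were 21.3% and 22.9%.

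The cytosolic ribosome and the respiratory chain, whose core subunits the mitochondrial ribosome makes, were read the same way. Of 77 cytosolic ribosomal proteins, 12 were higher in both triple-mutant tumors and 1 in both double-mutant tumors (15.6% and 1.30%, against 21.3% and 22.9% of all tested genes), with 64 overlapping, and their median log2 fold change was 0.18. Their median deviation was 0.32 in tumor 26044 and −0.17 in tumor 26043, where the mitochondrial family was at −0.046 and 0.033. Of 78 tested subunits of oxidative phosphorylation, 21 were higher in both triple-mutant and 15 in both double-mutant tumors (26.9% and 19.2%), with a median of 0.063. The differences between these lists and the mitochondrial family were not tested.

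The 76 genes lay on 17 chromosomes, and chromosome 11 held the most, 10 genes. A protein-coding gene overlapped 26 of them, on the opposite strand for 23. For 25, a protein-coding gene on the opposite strand counted as a divergent partner, with a start within 1000 bases and not far inside the gene. Opposite-strand genes that start farther inside, such as Tmem63b at 583 bases for Mrpl14, were not counted as divergent. The libraries were made with dUTP, which marks the strand, but whether the FPKM used the strand is not given in the sources used here, so overlapping pairs may share reads. Of the 24 distinct divergent pairs with a tested partner, 16 had log2 fold changes of the same sign. Many of these fold changes were smaller than their errors, and no such share was computed over other neighbouring pairs. Among the partners, Ndufs6, a complex I subunit gene facing Mrpl36, gave 299 and 306 against 300 and 225 FPKM, and Sars2, a mitochondrial tRNA synthetase gene facing Mrps12, gave 12.7 and 15.9 against 13.0 and 14.0.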

How the data were processed

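RNA of 4 mouse mammary tumors, 2 of each genotype as given in the labels, was analysed. The authors isolated polyA RNA, sequenced 50-bp single-end reads, aligned them to mm10 with TopHat2 2.0.10 and Bowtie 0.12.9 (per the labels) and estimated FPKM with Cufflinks 2.1.1, and deposited FPKM per gene with the bounds of Cufflinks' interval in the same unit, 1 table per tumor. DESeq2 1.6.2 was used by the authors on HTSeq counts, which were not used here. FPKM does not give the number of reads, so depth is unknown. Cufflinks' interval had a median half-width of 7.49% of its midpoint over the family and covers the measurement of 1 tumor, not the spread between tumors.

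The tables were joined by symbol and position. The filter kept genes of 1 FPKM or more in at least 2 tumors, and a linear model of log2(FPKM + 1) was made in R 4.3.3 with limma 3.58.1 (eBayes with a trend, Benjamini-Hochberg adjustment over all 12752 genes, threshold 0.05), triple-mutant minus double-mutant. With this pseudocount, fold changes of genes at low FPKM come out too small. The scripts were tested on simulated data. Neighbours are the 20 tested genes on either side on the chromosome. Gene positions, which set the neighbours, are those deposited with the FPKM. Strands, transcript lengths and the overlapping or divergent genes are from GENCODE M21 (GRCm38), where all 76 genes matched by symbol, and promoters from RefSeq. Tables and plots were made in Python 3.11.15 (numpy 2.4.6, pandas 2.3.3, matplotlib 3.10.9).

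Members and lists were chosen with earlier results of these data known. Named are the 8 genes with the largest difference in each direction among those whose genotypes do not overlap, the 5 highest and 5 lowest levels, the 5 smallest p, the Mrps18 paralogs, members whose neighbours' median log2 fold change passed 0.5, and in other lists mainly the members with the largest change; further genes were named after their values were seen. Alternatives were 0.1 as the pseudocount, a filter of 5 FPKM or none, TPM, quantile normalization, centring on the median, no trend, the interval midpoint, status OK only, leaving out each tumor, the neighbours' median log2 fold change subtracted (in each tumor as well, chosen after seeing the data), the family with the mitoribosomal proteins of other names, and subunits by structure. The authors' own comparisons were not used.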

Additional observations from a re-analysis of the deposited data

How the results depend on the processing

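No paired analysis was possible because the genotypes share no replicate numbers in the labels, and which of the littermates' tumors would form pairs is not given. The 0 genes of the family with an adjusted p under 0.05 remained 0 under every alternative fitted, while over all tested genes the count of 0 became 6 after quantile normalization, 5 by limma without a trend and 1 with the interval midpoint as the value. Leaving out each tumor gave 17 to 36 genes of the family higher in the triple-mutant and 20 to 40 higher in the double-mutant tumors, where 1 genotype then has 1 tumor and the same counts over all tested genes ran from 30.8% to 40.2% and from 31.9% to 45.1%. Without tumor 26044 28 and without tumor 26050 36 genes were higher in the triple-mutant tumors, and without tumor 26043 32 and without tumor 26048 40 were higher in the double-mutant tumors. The median log2 fold change of the family ran from −0.15 (without tumor 26048) to 0.096 (without tumor 26050), that of the large subunit from −0.16 to 0.14 and that of the small subunit from −0.13 (without tumor 26043) to 0.052. Subtracting the neighbours' median log2 fold change put the large subunit at −0.12 and the family at −0.09, and gives no count of genes whose genotypes do not overlap. Subtracting their median deviation in each tumor, chosen after seeing the data, moved the large subunit to −0.14, and the cause was not tested. The family then had 12 genes higher in both triple-mutant and 20 in both double-mutant tumors, beside 21.89% and 21.42% of all tested genes. Centring on the median of the tested genes gave 12 and 21 genes, beside 19.42% and 25.73%. The interval midpoint gave 16 and 12, beside 22.98% and 19.53%. In the main fit the counts were 15 and 18, beside 21.3% and 22.9%. With centring and with the midpoint, the shares over all tested genes thus moved in the same directions as the family's counts. Of 405 values of 27 named genes under the alternatives, 21 moved beyond the spread of the tumors, all with the neighbours subtracted. Values from leaving out a tumor come from that same spread, so this count does not show how far they shifted. Mrpl4 went from 0.48 to 0.11 without tumor 26044, and Mrpl1 from −0.22 to 0.20 without tumor 26050. In all, 26 values of 11 genes changed sign, and 0 tested genes had passed the threshold in the main fit. Depth is unknown, and 2 tumors a genotype limit every comparison.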

Other observations

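In the list of cytosolic ribosomal proteins read beside the mitochondrial family, Rpl26 was at 128 FPKM in the triple-mutant tumor 26043 and at 3045, 2504 and 2759 FPKM in tumors 26044, 26048 and 26050. Rpl26 and Trp53 lie on chromosome 11 at 68.9 and 69.58 Mb, and Trp53 was at 15.7 FPKM in the same tumor and at 87.8, 150 and 103 FPKM in the others. The 20 tested genes on either side of Rpl26 had a median deviation of 0.015 in tumor 26043, and those around Trp53 −0.0066, on the log2 scale. In the list of oxidative phosphorylation subunits, Ndufa5 was at 2576 FPKM in the double-mutant tumor 26050 and at 204, 181 and 337 FPKM in tumors 26043, 26044 and 26048. Ndufa5 and Rpl26 were singled out after their values were seen.

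Cox8b and Cox7a1, cytochrome oxidase subunits known from brown fat and muscle, were highest in the double-mutant tumor 26048, at 367 and 107 FPKM, against at most 5.03 and 8.78 FPKM in the other tumors. The adipocyte markers Adipoq, Fabp4 and Cfd were highest in the same tumor, at 56.0, 1263 and 625 FPKM. The part of fat tissue in these values was not tested. In the mitochondrial ribosomal protein family, tumor 26048 held the highest value of 7 of the 76 genes and the lowest of 28.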
